A study of Rattus norvegicus with 50 samples.

Results

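Tubulin genes encode the subunits of microtubules. In rat liver, 8 of them were examined here: the β-tubulin genes Tubb6, Tubb2a, Tubb2b, Tubb5 and Tubb4b, and the α-tubulin genes Tuba1b, Tuba1c and Tuba4a. They were chosen by symbol, and each gene was read from the probe set with the highest mean over all 50 arrays among those paired with its symbol alone. Of the 8 genes, 6 had such a probe set, out of 14217 genes measured in this way. Tuba1b and Tuba1c were read only by a probe set that the annotation also pairs with Tuba1a, so neither has a value of its own in the comparisons.

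Livers of 50 Brown Norway rats were measured, all of them females aged 9 to 11 weeks (Bn/Crl, MHC haplotype RT1n), with 1 array for each rat and 17 groups in all. Combination rats were given nevirapine, an inhibitor of HIV reverse transcriptase that can injure the liver, by mouth at 150 mg/kg, later 100 mg/kg and, after a day without drug, 75 mg/kg. On day 7 they received 750 mg/kg of galactosamine, an amino sugar that is toxic to hepatocytes, by intraperitoneal injection. Nevirapine was then continued, and livers were taken 3 h, 24 h, 48 h and 8 d after galactosamine, when 8, 9, 10 and 16 oral doses had been given. Galactosamine rats had the same injection with sham oral dosing and were sampled at the same 4 times. Nevirapine rats had the oral drug with a sham injection and were sampled 3 h, 24 h, 48 h and 15 d after the first dose, having had 1, 2, 3 and 16 doses. Nevirapine rats sampled at 3 h, 24 h and 48 h had therefore had only the start of the course that combination rats had behind them at those times. The series' design text gives 75 mg/kg for the 15 d nevirapine group. Vehicle rats had sham dosing by both routes and were sampled at 3 h, 24 h, 48 h, 8 d and 15 d. At 3 h the last oral or sham dose lay 3 h back in nevirapine rats and 5 h back in the other groups. At all later times it lay 2 h back. Each group held 3 rats, except that 2 galactosamine rats were measured at 48 h. The stated aim was to follow the 8 days in which the drugs given together produced liver fibrosis while neither did so alone.

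Microtubules are hollow polymers of α/β-tubulin dimers that give hepatocytes their tracks for vesicle traffic, for secretion of plasma proteins and for bile canaliculus transport, and that form the spindle in dividing cells. The genes of each family encode near-identical proteins whose mix differs between tissues. When free dimers accumulate, cells shorten the life of tubulin mRNAs through TTC5, SCAPER and the CCR4-NOT complex, a loop known as tubulin autoregulation. Tubb5 and Tubb4b are broadly expressed β-tubulins, Tubb2a and Tubb2b are known best from neurons, Tubb6 is a divergent β-tubulin of non-neuronal tissues, and Tuba4a is an α-tubulin whose gene does not encode the C-terminal tyrosine that other α-tubulins carry.

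Values are log2 intensities from robust multi-array averaging as deposited, so a difference of 1 is a doubling. A level of one gene cannot be set against that of another, since probe sets bind differently. Levels are compared only between groups for the same gene. A gene was called higher or lower when its Benjamini-Hochberg adjusted p, over all 14217 genes in a limma fit of all 17 groups, was under 0.05. Array medians lay between 4.95 and 5.09, and each array correlated with the others of its group at a mean r of 0.979 to 0.997. The summed signal of 11 hepatocyte markers was 78741 to 93871 over all groups. It was 78741 to 85139 in nevirapine livers at 48 h and 91165 to 93871 in vehicle livers at 24 h. Strong signals such as Alb (highest group mean 14.18) and Serpina1 (13.73) weigh most in this sum, and weaker ones such as Cyp2c11 (6.43) little. The sum therefore says little about the number of hepatocytes. None of these markers lay under the background of 4.37 set by bacterial control probe sets. Tubb2b lay between 3.80 and 4.36 in all 17 group means, under that background, so no size is given for it. The background is the highest of 27 control probe sets, and the 12 of them whose names start with Bs reached only 2.94, a level that every Tubb2b group mean exceeds.

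The sequences before the start sites are shown here for the 3 β-tubulin genes with the widest range over the 17 groups. Whether these sequences bear on the tubulin values was not tested. They are the 250 bases before each RefSeq start on assembly GRCr8, 5′ to 3′, and capitals mark a TATA box, CCAAT box, GC box or full cyclic AMP response element on either strand.
Tubb6 (chr18:63213037-63213286, plus strand): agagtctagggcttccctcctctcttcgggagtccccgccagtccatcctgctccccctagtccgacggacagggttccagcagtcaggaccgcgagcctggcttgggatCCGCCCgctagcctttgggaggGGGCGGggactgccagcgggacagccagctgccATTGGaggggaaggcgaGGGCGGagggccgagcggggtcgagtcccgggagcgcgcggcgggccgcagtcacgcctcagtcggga
Tubb2a (chr17:31001936-31002185, plus strand): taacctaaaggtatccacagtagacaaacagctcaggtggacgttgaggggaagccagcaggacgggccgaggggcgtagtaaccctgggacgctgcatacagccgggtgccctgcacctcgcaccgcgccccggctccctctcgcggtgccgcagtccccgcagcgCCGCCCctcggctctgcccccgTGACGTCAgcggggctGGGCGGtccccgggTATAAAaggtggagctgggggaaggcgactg
Tubb4b (chr3:28438456-28438705, minus strand): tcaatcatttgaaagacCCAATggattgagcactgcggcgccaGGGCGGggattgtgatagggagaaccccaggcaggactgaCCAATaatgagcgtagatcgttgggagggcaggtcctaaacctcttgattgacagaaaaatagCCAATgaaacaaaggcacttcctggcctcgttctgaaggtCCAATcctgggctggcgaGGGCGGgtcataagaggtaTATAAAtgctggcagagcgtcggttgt
Over all 33469 RefSeq rat promoters, taken from 250 bases before to 50 bases after the start, 14.2% held the TATA box, spelled TATAAA, and 37.5% held the CCAAT box. The GC box, GGGCGG, was in 33.1% of them, and the full cyclic AMP response element, TGACGTCA, in 1.83%. The Tubb2a window had a TATA box whose first base lay 31 bases before the start and the palindromic TGACGTCA at 61 bases. In Tubb4b a TATA box lay at 27 bases and 4 CCAAT boxes lay between 233 and 64 bases before the start. Tubb6 had no TATAAA in this window, a CCAAT box on the opposite strand at 85 bases and GC boxes at 68, 118 and 140 bases, and its GC content over the searched window was 70.7% against a median of 51.7% over all promoters. An AP-1 site (TGANTCA, in 7.33% of all windows) and the core of the antioxidant response element (TGACNNNGC, in 12.1%) were searched for as well and matched none of the 6 measured genes' windows. A match or its absence describes the letters of these windows and not binding. In GRCr8, Tubb6 spans 63213287 to 63222926 of chromosome 18, Tubb2a spans 31002186 to 31006057 of chromosome 17, and Tubb4b spans 28435999 to 28438455 of chromosome 3.

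**Figure D1:**
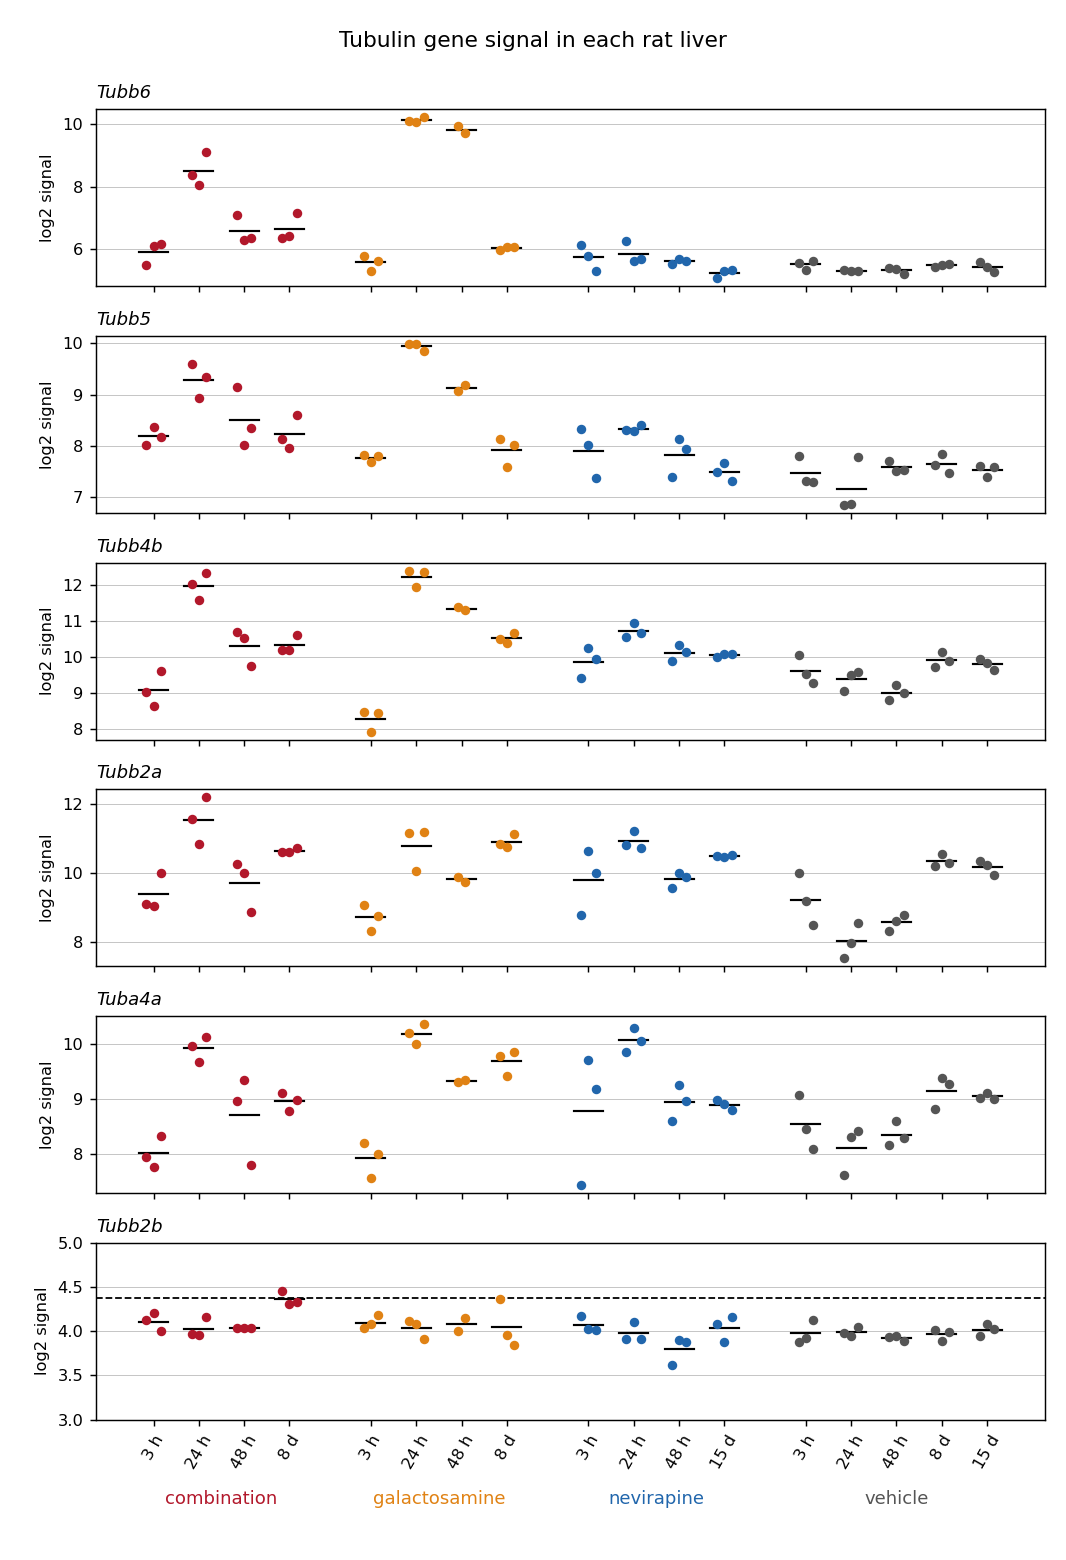
Log2 intensity of the 6 measured tubulin genes in each rat, 1 point per rat with a bar at the group mean, for combination, galactosamine, nevirapine and vehicle rats by time after galactosamine or the first dose, with background as a dashed line for Tubb2b. The highest Tubb6 points are the galactosamine rats at 24 h and 48 h, between 9.73 and 10.23, while all 15 vehicle rats lie between 5.19 and 5.62.

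The comparison of galactosamine with vehicle at the same time addresses tubulin mRNA after the single injection alone. At 24 h all 5 tubulin genes above background were higher in galactosamine livers, by 4.20-fold to 28.8-fold, and they were still higher at 48 h. Tubb6 had log2 intensities of 10.10, 10.08 and 10.23 in galactosamine livers at 24 h, against 5.32, 5.28 and 5.28 in vehicle livers. The groups were far apart and each was tight, and this was a 28.8-fold difference (log2 change 4.85 ± 0.22, SE, adjusted p = 2.51e-20). At 48 h Tubb6 stood at 9.94 and 9.73 in the 2 galactosamine livers and at 5.39, 5.35 and 5.19 in vehicle livers, a 23.1-fold difference (log2 change 4.53 ± 0.25, adjusted p = 1.93e-16).

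Tubb4b had 12.41, 11.94 and 12.37 in galactosamine livers at 24 h and 9.06, 9.51 and 9.58 in vehicle livers (log2 change 2.86 ± 0.23, 7.24-fold, adjusted p = 1.76e-13). Tubb5 had 9.99, 9.98 and 9.86 in galactosamine livers and 6.84, 6.85 and 7.78 in vehicle livers (log2 change 2.79 ± 0.24, 6.89-fold, adjusted p = 4.89e-13). Neither pair of groups overlapped, and 1 of the 3 vehicle rats was above the other two for Tubb5. Tubb2a had 11.14, 10.05 and 11.18 in galactosamine livers, against 7.52, 7.96 and 8.54 in vehicle livers (log2 change 2.79 ± 0.37, adjusted p = 2.46e-08). The α-tubulin Tuba4a had 10.20, 10.00 and 10.37 in galactosamine livers and 7.62, 8.32 and 8.42 in vehicle livers (log2 change 2.07 ± 0.33, adjusted p = 1.28e-06). These groups did not overlap either, although the Tubb2a values spread over more than 1 log2 unit within each group. Of the 6 measured members, 5 were called at 24 h, all higher, where 58.8% of all genes were called, 30.2% higher and 28.5% lower. The members' median change was 2.79 and that of all genes was -0.07.

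Markers of other liver cells moved at these times too. At 24 h 5 of 11 macrophage markers were higher and 1 lower in galactosamine livers, where 30.2% of all genes were higher, and their summed signal was 7947 to 9180 in galactosamine livers and 2407 to 2605 in vehicle livers. Of 11 markers of dividing cells, 4 were higher, a share near that of all genes. Their summed signals were 983 to 1236 in galactosamine livers and 473 to 522 in vehicle livers, where 5 and 7 of the 11 lay under background. Strong signals weigh most in sums of this list, such as Pcna (highest group mean 9.58, before Mcm2 at 7.17). Of 7 neutrophil markers 3 were higher and 1 lower, with sums of 340 to 1438 in galactosamine livers and 130 to 194 in vehicle livers. Lcn2, which hepatocytes also make in the acute-phase response and which was not called here (adjusted p = 0.0974), made up 32% to 84.2% of that sum in galactosamine livers and 30.5% to 59.1% in vehicle livers. At 48 h 10 of the 11 macrophage markers were higher and 1 lower, where 24.9% of all genes were higher. Their sums were 8279 to 8576 in galactosamine livers and 2713 to 4164 in vehicle livers. The part of these cells in the tubulin differences was not tested. In whole liver, more or fewer cells of a type and more or less RNA per cell cannot be told apart.

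The first hours differed. At 3 h, 1 of 6 members was called, where 32.9% of all genes were called and 18% were called lower: Tubb4b was lower in galactosamine livers, at 8.48, 7.93 and 8.46, against 10.05, 9.54 and 9.28 in vehicle livers (log2 change -1.33 ± 0.23, adjusted p = 1.82e-05). No galactosamine liver reached the lowest vehicle liver. Tubb2a and Tuba4a had changes of -0.52 ± 0.37 and -0.61 ± 0.33 that were not called (adjusted p = 0.307 and 0.166), and Tubb6 was at 5.78, 5.28 and 5.62 in galactosamine livers and at 5.55, 5.33 and 5.62 in vehicle livers. Within galactosamine rats, the step from 3 h to 24 h was a 15.5-fold increase for Tubb4b (log2 change 3.95 ± 0.23, adjusted p = 8.56e-18) and a log2 change of 4.58 for Tubb6. All 5 members above background were higher at 24 h than at 3 h, where 68.2% of all genes were called and 32.8% were called higher.

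At 48 h, 5 of 6 members were called higher against vehicle, where 39.4% of all genes were called and 24.9% were called higher. Tubb4b had 11.39 and 11.31 in galactosamine livers and 8.82, 9.22 and 9.01 in vehicle livers, a 5.04-fold difference (log2 change 2.33 ± 0.26, adjusted p = 4.19e-09). Tubb5 had 9.07 and 9.18 in galactosamine livers and 7.69, 7.50 and 7.53 in vehicle livers (log2 change 1.55 ± 0.26, adjusted p = 1.06e-05). Tubb2a and Tuba4a, with log2 changes of 1.24 ± 0.41 and 0.98 ± 0.37 (adjusted p = 0.0153 and 0.0349), were closer to the limit. Their calls were lost when vehicle rat 10 or either galactosamine rat was left out, with adjusted p between 0.0508 and 0.139, and Tuba4a was lost without vehicle rat 12 as well (adjusted p = 0.0767). Against all 15 vehicle rats together, Tubb2a differed by 0.55 (adjusted p = 0.419) and Tuba4a by 0.68 (adjusted p = 0.116). The 3′ minus 5′ difference of the GAPDH control probe sets, a sign of RNA quality, was 0.13 to 0.145 in galactosamine livers and 0.483 to 0.744 in vehicle livers at 48 h. With it as a covariate the changes were 4.49 for Tubb6, 2.17 for Tubb4b and 1.45 for Tubb5, all called, and 1.16 for Tubb2a and 0.73 for Tuba4a (adjusted p = 0.0606 and 0.194).

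By 8 d no member was called between galactosamine and vehicle livers, where 0.0352% of all genes were called. Tubb6 was at 5.96, 6.05 and 6.06 in galactosamine livers and at 5.40, 5.47 and 5.51 in vehicle livers, so the groups did not overlap, and the change of 0.57 ± 0.22 had an adjusted p of 0.635. Against all 15 vehicle rats it was 0.63 (adjusted p = 0.0241). Between 48 h and 8 d Tubb6 came down: it was lower at 8 d than at 48 h (log2 change -3.81 ± 0.25, adjusted p = 1.34e-14). Between 24 h and 48 h its change was -0.30 ± 0.25 (adjusted p = 0.353). Tubb4b and Tubb5 were already lower at 48 h than at 24 h, by log2 changes of -0.89 and -0.82 (adjusted p = 0.00467 and 0.00986), and Tubb2a by -0.99 (adjusted p = 0.0482, 3 of 6 members called lower, with 22.5% of all genes called lower and 45.2% in either direction). In that step the Tubb2a call was lost without galactosamine rat 22, 24, 26 or 27, and the Tubb5 call without rat 26 (adjusted p = 0.0749). From 48 h to 8 d, 4 of 6 members were called with 34.9% of all genes, with 23% of all genes lower and 11.9% higher. Tubb5 and Tubb4b fell with Tubb6, by log2 changes of -1.21 and -0.83, and Tubb2a was 1.10 higher (adjusted p = 0.0356). The calls for Tubb2a and Tubb4b in that step were lost without either 48 h rat (26 or 27), and the Tubb2a call was lost without 2 of the 3 rats at 8 d as well.

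With nevirapine alone, tubulin genes were higher at 24 h, after 2 doses, and Tubb2a had the highest fold of them. It stood at 10.81, 11.20 and 10.73 in nevirapine livers, against 7.52, 7.96 and 8.54 in vehicle livers, a 7.50-fold difference (log2 change 2.91 ± 0.37, adjusted p = 8.81e-07). Every nevirapine liver was more than 2 log2 units above every vehicle liver. Tuba4a had 9.85, 10.30 and 10.06 in nevirapine livers and 7.62, 8.32 and 8.42 in vehicle livers (log2 change 1.95 ± 0.33, adjusted p = 0.000105). Tubb4b had 10.57, 10.96 and 10.68 in nevirapine livers and 9.06, 9.51 and 9.58 in vehicle livers (log2 change 1.36 ± 0.23, adjusted p = 0.000111). Tubb5 also rose, by 1.17 ± 0.24 (adjusted p = 0.000778). Tubb6 was at 6.26, 5.59 and 5.67 in nevirapine livers and at 5.32, 5.28 and 5.28 in vehicle livers, a change of 0.55 ± 0.22 that was not called (adjusted p = 0.106). In all, 4 of 6 members were called, each higher, where 11.2% of all genes were called, 4.55% higher and 6.63% lower. The members' median change was 1.27, beside -0.01 for all genes.

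At 48 h of nevirapine 2 of 6 members were called, with 17.4% of all genes, or 11.0% called higher: Tubb2a was 1.24 ± 0.37 higher (adjusted p = 0.0169) and Tubb4b 1.11 ± 0.23 higher (adjusted p = 0.00105). Against all 15 vehicle rats these were 0.55 (adjusted p = 0.434) and 0.58 (adjusted p = 0.0736), and neither was called. Tubb2a was also lost without vehicle rat 10 or nevirapine rat 41 or 42. No member was called at 3 h, with 15.1% of all genes, or at 15 d, with 13.9%. At 3 h the 3 nevirapine livers were split: Tuba4a was at 7.44, 9.71 and 9.18 and Tubb2a at 8.77, 10.63 and 9.98, against 9.07, 8.46 and 8.09 and 10.00, 9.17 and 8.49 in vehicle livers. The low liver in both genes was rat 31. Without it, Tubb2a was 1.08 higher (adjusted p = 0.0486) and Tuba4a 0.91 higher (adjusted p = 0.0325) than in vehicle livers. From 3 h to 24 h of nevirapine, 3 of 6 members were higher (18.6% of all genes were called, 10.2% higher), and without rat 31 no member was. From 24 h to 48 h Tubb2a and Tuba4a were lower by 1.11 and 1.13 (2 of 6 members, beside 12.4% of all genes called and 4.81% lower), with at most 1 of these calls left when a rat was left out. From 48 h to 15 d no member was called, beside 13.5% of all genes.

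In livers of rats that had both drugs, all 5 members above background were higher than in vehicle livers at 24 h. Tubb2a had 11.57, 10.83 and 12.19 in combination livers and 7.52, 7.96 and 8.54 in vehicle livers, an 11.5-fold difference (log2 change 3.52 ± 0.37, adjusted p = 8.1e-10). Tubb6 had 8.38, 8.04 and 9.10 in combination livers, against 5.32, 5.28 and 5.28 in vehicle livers, a 9.28-fold difference (log2 change 3.21 ± 0.22, adjusted p = 7.61e-14). Combination livers spread over about 1 log2 unit in both genes, and none came near a vehicle liver. Tubb4b had 12.03, 11.59 and 12.34 in combination livers and 9.06, 9.51 and 9.58 in vehicle livers (log2 change 2.60 ± 0.23, adjusted p = 3.2e-11). Tubb5 rose by 2.13 ± 0.24 (adjusted p = 2.81e-09) and Tuba4a by 1.80 ± 0.33 (adjusted p = 3.23e-05). The 5 of 6 members called higher stand beside 36.7% of all genes called, 20.7% higher and 16% lower, and the members' median change was 2.37 beside -0.01 for all genes. Of 11 macrophage markers 9 were higher at this time, with sums of 5432 to 6590 in combination livers and 2407 to 2605 in vehicle livers, and 5 of 11 markers of dividing cells were higher, with sums of 1049 to 1363 and 473 to 522 in these groups. Of 7 neutrophil markers 2 were higher, Lcn2 and Fcgr3a, and Lcn2 made up 84.5% to 93.6% of their summed signal in combination livers. The part of other cells in the tubulin values was not tested. In nevirapine livers at 24 h the macrophage markers summed to 2040 to 2365, with 3 of 11 lower and none higher. No marker of dividing cells was called in that comparison, where 6.63% of all genes were lower and 4.55% higher.

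At 3 h 1 of 6 members was called in combination livers, with 32.5% of all genes called and 15.2% higher. Tubb5 had 8.02, 8.36 and 8.17 in combination livers and 7.80, 7.30 and 7.29 in vehicle livers (log2 change 0.72 ± 0.24, adjusted p = 0.0169), a call lost without vehicle rat 2 or 3 or combination rat 62 (adjusted p = 0.0684 to 0.0815). Tubb4b differed by -0.52 ± 0.23 (adjusted p = 0.0813), which passed without vehicle rat 3 (-0.70, adjusted p = 0.0385) or combination rat 63 (-0.78, adjusted p = 0.0124). From 3 h to 24 h all 5 members above background rose (41.2% of all genes were called, 24.6% higher), and from 24 h to 48 h all 5 fell (28.5% of all genes, 16.2% lower), Tubb6 by a log2 change of -1.93 and Tubb2a by -1.83. In the second step the call for Tubb5 was lost without combination rat 67 or 71, and that for Tuba4a without rat 72. At 48 h, 4 of 6 members were still higher than in vehicle livers, where 15.9% of all genes were called and 10.2% were called higher. Tubb6 had 7.10, 6.28 and 6.35 in combination livers, against 5.39, 5.35 and 5.19 in vehicle livers (log2 change 1.27 ± 0.22, adjusted p = 8.09e-05), and Tubb4b changed by 1.30 ± 0.23 (adjusted p = 0.000117). Tubb5 changed by 0.93 ± 0.24 (adjusted p = 0.00492) and Tubb2a by 1.13 ± 0.37 (adjusted p = 0.0295). Tubb5 was not called without combination rat 70 (adjusted p = 0.113), and Tubb2a was not called without any 1 of 5 rats. Both calls were lost when only these 2 groups were fitted (adjusted p = 0.0926 and 0.0997), a fit that called 374 genes in all where the fit of all groups called 2265.

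At 8 d the comparison is with vehicle at 15 d, since these rats had the longest oral course. Tubb6 was higher in each combination liver, at 6.34, 6.40 and 7.14, against 5.56, 5.42 and 5.24 in vehicle livers, a 2.33-fold difference (log2 change 1.22 ± 0.22, adjusted p = 9.35e-05). Nevirapine rats at 15 d had 5.05, 5.28 and 5.32, and combination livers were above them by a log2 change of 1.41 ± 0.22 (adjusted p = 2.6e-05). Tubb5 had 8.12, 7.95 and 8.59 in combination livers and 7.61, 7.39 and 7.58 in vehicle livers (log2 change 0.69 ± 0.24, adjusted p = 0.0293). That Tubb5 call was lost without combination rat 87, the highest (adjusted p = 0.183), or without any of the 3 vehicle rats, and against vehicle at 8 d the change was 0.57 (adjusted p = 0.111). Against nevirapine at 15 d Tubb5 was 0.73 ± 0.24 higher (adjusted p = 0.0337), and this was lost without nevirapine rat 43 or 45 or combination rat 73 or 87. Tubb2b was called as well but stayed under background, so that 3 of 6 members were called against vehicle with 24.8% of all genes (13.1% higher), and 3 of 6 against nevirapine at 15 d with 12.4% (9.31% higher). From 48 h to 8 d, 2 of 6 members were called higher, with 35.1% of all genes called and 15.2% higher: Tubb2b, and Tubb2a with a change of 0.94 (adjusted p = 0.0444) that was lost without any 1 of 4 rats.

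At 8 d markers of other cells differed in these livers as well. Of 12 markers of stellate cells and myofibroblasts, 8 were higher than in vehicle livers at 15 d. Their sums were 6546 to 8696 in combination livers and 2042 to 2772 in vehicle livers. Strong signals such as Col3a1 (highest group mean 12.1) weigh most in these sums. Of 11 markers of dividing cells, 7 were higher (771 to 1495 in combination livers and 531 to 567 in vehicle livers), and 6 of 11 macrophage markers were higher (5654 to 7613 and 3765 to 4235 in these groups). Their part in the Tubb6 and Tubb5 values was not tested. Among 13 genes that take microtubules apart, 5 were higher, where 13.1% of all genes were higher. They include Stmn1, which encodes the tubulin-binding protein stathmin and is high in dividing cells, at 2.56 ± 0.33, and Mid1, a microtubule-bound ubiquitin ligase, at 1.78 ± 0.18.

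**Figure D2:**
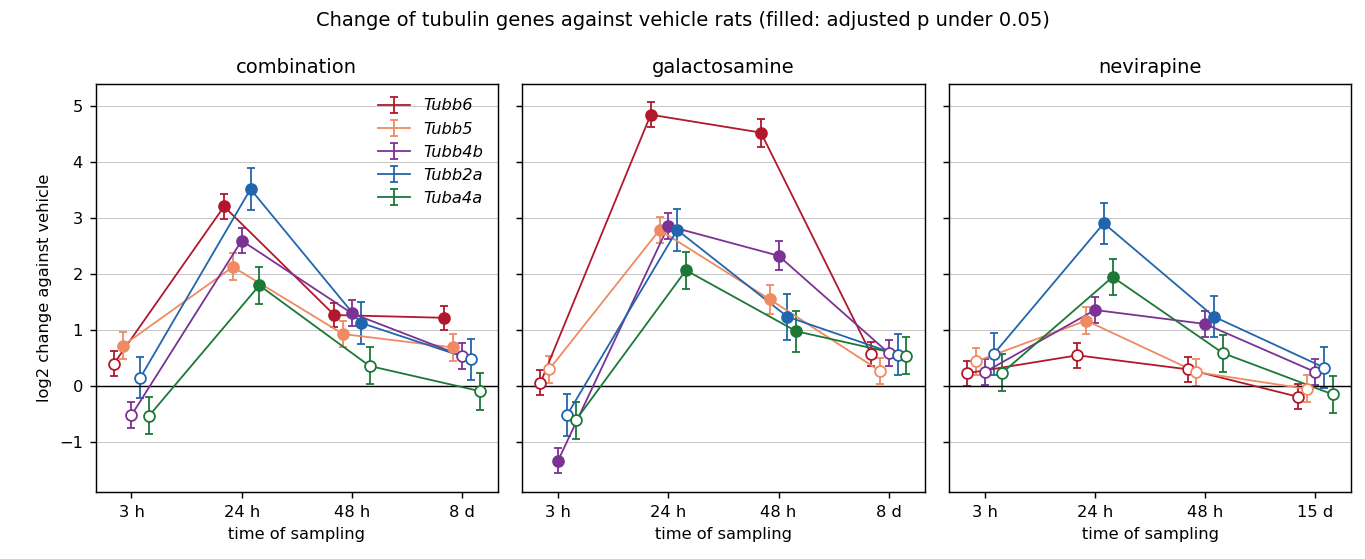
Log2 change against vehicle with its standard error for the 5 tubulin genes above background at each time, for combination, galactosamine and nevirapine rats, filled where the adjusted p was under 0.05. Tubb6 reaches 4.85 and 4.53 in galactosamine rats at 24 h and 48 h, against 3.21 and 1.27 in combination rats, while Tubb2a at 24 h is 3.52, 2.79 and 2.91 in combination, galactosamine and nevirapine rats.

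Set directly against galactosamine alone, combination livers had lower Tubb6 values at 24 h and 48 h. At 24 h the values were 8.38, 8.04 and 9.10 in combination livers and 10.10, 10.08 and 10.23 in galactosamine livers, 3.10-fold lower in the combination (log2 change -1.63 ± 0.22, adjusted p = 1.48e-07). At 48 h they were 7.10, 6.28 and 6.35 in combination livers and 9.94 and 9.73 in galactosamine livers, 9.57-fold lower (log2 change -3.26 ± 0.25, adjusted p = 1.02e-12). No combination liver reached any galactosamine liver at either time. The GAPDH 3′ minus 5′ difference was 0.184 to 0.277 in combination livers and 0.391 to 0.531 in galactosamine livers at 24 h, and 0.293 to 0.348 and 0.13 to 0.145 in these groups at 48 h. With it as a covariate the Tubb6 changes were -1.65 and -3.24 (adjusted p = 5.1e-07 and 4.54e-12). Tubb5 was lower by a log2 change of -0.65 ± 0.24 at 24 h (adjusted p = 0.0267), a call lost without galactosamine rat 22 or 23 or combination rat 69. Tubb4b was lower at 48 h, at 10.70, 10.52 and 9.75 in combination livers and 11.39 and 11.31 in galactosamine livers (log2 change -1.03 ± 0.26, adjusted p = 0.00258). With only these 2 groups fitted its adjusted p was 0.0584. Tubb2a went the other way at 24 h, with a change of 0.74 ± 0.37 that was not called (adjusted p = 0.114), but was without combination rat 69 (1.09, adjusted p = 0.0319). At 48 h Tubb5 had a change of -0.62 (adjusted p = 0.0729), which passed without combination rat 70 (-0.94, adjusted p = 0.00606). In all, 2 of 6 members were called at 24 h, with 37.8% of all genes (21.6% lower), and 2 of 6 at 48 h, with 29.3% (17.1% lower), each of them lower.

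At 3 h Tubb4b was at 9.04, 8.64 and 9.61 in combination livers and at 8.48, 7.93 and 8.46 in galactosamine livers, and the groups did not overlap (log2 change 0.81 ± 0.23, adjusted p = 0.0128). This was 1 of 6 members called, with 17.7% of all genes (10.6% higher), and it was lost without galactosamine rat 17 (adjusted p = 0.099) or combination rat 63 (adjusted p = 0.152). At 8 d no member differed when each group was first set against its own vehicle, with 11.2% of all genes called. Tubb6 had a difference of 0.65 ± 0.31 (adjusted p = 0.17) and Tuba4a one of -0.62 ± 0.47 (adjusted p = 0.417).

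Whether galactosamine had another effect with nevirapine than without it was tested as the difference of both effects, each taken within its own oral treatment. At 24 h, with vehicle of the same time as control, the effect was smaller with nevirapine for all 5 members above background. For Tubb6 the galactosamine effect was 2.66 with nevirapine and 4.85 without (difference -2.18 ± 0.31, adjusted p = 9.01e-07). For Tuba4a it was -0.15 with nevirapine and 2.07 without (difference -2.22 ± 0.47, adjusted p = 0.000322). For Tubb2a it was 0.62 with and 2.79 without (difference -2.17 ± 0.52, adjusted p = 0.00125). The 24 h vehicle group was the lowest of the 5 vehicle groups for Tubb2a, and with all 15 vehicle rats as one control the difference was -0.92 and was not called (adjusted p = 0.376). Under that control the other 4 were still called, at -2.08 for Tubb6, -1.69 for Tuba4a, -1.51 for Tubb5 and -1.44 for Tubb4b. At that time Tuba4a averaged 10.19 in galactosamine livers and 10.07 in nevirapine livers, and Tubb2a averaged 10.79 and 10.91 in these groups. Tubb5 had effects of 0.96 with and 2.79 without nevirapine (difference -1.82 ± 0.33, adjusted p = 4.56e-05), and Tubb4b had 1.25 and 2.86 (difference -1.61 ± 0.33, adjusted p = 2e-04). These 5 of 6 members stand beside 30.0% of all genes called and 16.6% called with a negative difference. At 48 h 2 of 6 members were called, with 34.0% of all genes called and 19.8% negative. Tubb6 had an effect of 0.97 with nevirapine and 4.53 without (difference -3.55 ± 0.33, adjusted p = 4.64e-10), and Tubb4b had 0.19 with and 2.33 without (difference -2.14 ± 0.35, adjusted p = 1.42e-05). The differences for Tubb2a, Tubb5 and Tuba4a had adjusted p between 0.0542 and 0.0581, and all 3 passed without combination rat 70. With all 15 vehicle rats as one control Tubb5 passed too (-0.97, adjusted p = 0.025). No member was called at 3 h, with 11.8% of all genes, or at 8 d, with 2.82%, where Tubb6 had an effect of 1.41 with and 0.57 without nevirapine. Before 8 d the nevirapine courses of the combination and nevirapine groups differ in dose and length, so an interplay of both drugs and the longer nevirapine course cannot be told apart in these differences.

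**Figure D3:**
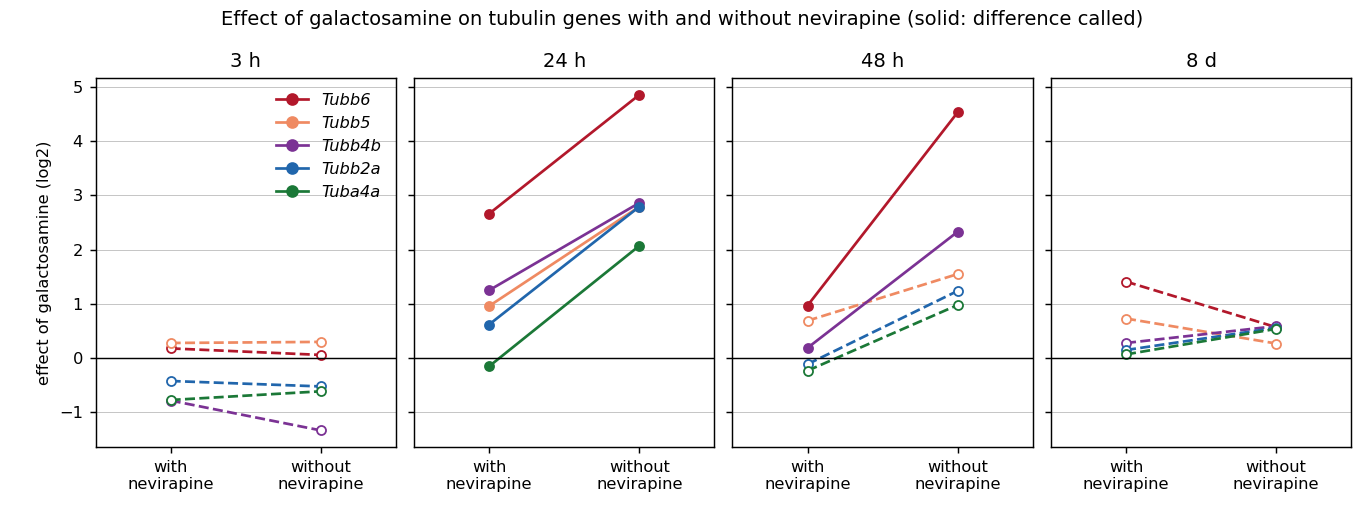
Log2 effect of galactosamine with nevirapine (combination minus nevirapine) and without it (galactosamine minus vehicle) for the 5 tubulin genes above background at each time, with solid lines where the difference of both effects was called. At 24 h the Tubb6 effect is 2.66 with and 4.85 without nevirapine, and at 48 h it is 0.97 with and 4.53 without.

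Vehicle rats themselves were not at a constant level for all members. Tubb2a averaged 9.22, 8.01, 8.57, 10.34 and 10.16 in vehicle livers at 3 h, 24 h, 48 h, 8 d and 15 d (limma F test over the 5 vehicle groups, adjusted p = 1.73e-05, with 29.6% of all genes called in that test). Its 15 vehicle values reached from 7.52 to 10.53 with a median of 9.17, and the 24 h group, which is the control of the 24 h comparisons, was the lowest. That group also had the lowest vehicle mean for Tuba4a (8.12), Tubb5 (7.16) and Tubb6 (5.29), beside means over all 15 vehicle rats of 8.64, 7.47 and 5.39. Against all 15 vehicle rats together the 24 h changes of Tubb2a were 2.27 in combination rats, 1.53 in galactosamine rats and 1.66 in nevirapine rats, in place of 3.52, 2.79 and 2.91, and all were still called (adjusted p = 3.18e-05, 0.00219 and 0.00902). Tubb4b and Tuba4a differed over vehicle times as well (adjusted p = 0.0157 and 0.0481). Tubb6 was steady, with 15 vehicle values from 5.19 to 5.62 and a median of 5.39 (adjusted p = 0.888), and Tubb5 was not called (adjusted p = 0.429). With the pooled control, 4 of 6 members were called higher in galactosamine livers at 8 d, in place of none: Tubb2a by 1.64, Tuba4a by 1.05, Tubb4b by 0.97 and Tubb6 by 0.63. Over all genes that control called 718 of 14217, in place of 5. The 8 d vehicle means of Tubb2a, Tuba4a and Tubb4b were 10.34, 9.16 and 9.93. They lay above the means of all 15 vehicle rats, which were 9.26, 8.64 and 9.55.

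Ordered by level, the Tubb6 group means ran from galactosamine at 24 h (10.14 ± 0.08, SD, n = 3) over galactosamine at 48 h (9.84 ± 0.15, n = 2) and combination at 24 h (8.51 ± 0.54, n = 3) to combination at 8 d and 48 h (6.63 and 6.58), which overlapped each other. Neighbours among the first 4 groups of this order did not overlap, and combination at 48 h was clear of the next group, galactosamine at 8 d (6.03). The remaining 12 groups, from 6.03 to 5.22, each overlapped their neighbour. The range of the 17 means was 4.92 log2 units for Tubb6, a 30.3-fold difference and wider than in 99.7% of genes. It was 3.95 for Tubb4b (98.9% of genes), 3.53 for Tubb2a (98.2%), 2.79 for Tubb5 (95.1%) and 2.26 for Tuba4a (89.6%). Tubb2a was highest in combination livers at 24 h (11.53), whose values overlapped those of nevirapine livers at 24 h (10.91), and lowest in vehicle livers at 24 h. Tubb4b was highest in galactosamine livers at 24 h (12.24) and lowest in galactosamine livers at 3 h (8.29), and its lowest group lay clear of the next. Tuba4a was highest in galactosamine livers at 24 h (10.19), next to nevirapine livers at 24 h (10.07) and combination livers at 24 h (9.92), which overlapped in turn. In the late groups Tubb2a was at 10.59 to 10.72 in combination livers at 8 d, 10.74 to 11.13 in galactosamine livers at 8 d, 10.46 to 10.52 in nevirapine livers at 15 d and 9.92 to 10.53 in vehicle livers at 8 d and 15 d.

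Other probe sets of the same genes bear on how far single values can be read. Tubb6 has a second probe set whose group means were 3.01 to 3.42, under background, and which differed between treated and vehicle groups by no more than -0.21 to 0.13. Against the 2.94 of the Bs-named controls alone it would count as above background. The Tubb6 values therefore rest on 1 probe set. Tubb5 has a second probe set above background, whose differences from vehicle at 24 h were 1.74 in combination livers, 2.33 in galactosamine livers and 0.57 in nevirapine livers, against 2.13, 2.79 and 1.17 on the one used. At 8 d it was 0.95 higher in combination livers than in vehicle livers. Tubb4b has 2 further probe sets, which the annotation also pairs with the gene C7. At 24 h they averaged 6.06 and 5.07 in galactosamine livers, against 6.71 and 5.35 in vehicle livers. In combination livers they averaged 7.47 and 6.11, and in nevirapine livers 7.42 and 5.82. Which of the 2 genes they read was not tested. The Tubb4b values therefore rest on 1 probe set as well.

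Over the 17 group means, the members fell into patterns that were alike to unequal degrees, given here as a description of groups that share a fit and controls. Tubb6 ran with Tubb5 (Pearson r = 0.94) and with Tubb4b (r = 0.82), and less with Tuba4a (r = 0.59) and Tubb2a (r = 0.42). Tubb2a ran with Tuba4a (r = 0.87), and Tuba4a with Tubb4b (r = 0.89). Genes were also ranked by likeness to each member, leaving out symbols that start with LOC, RGD or AABR. In that ranking those most like Tubb6 were Frmd8 (r = 0.979), Krt8, the type II keratin of hepatocytes (0.977), and Gucy2c, the intestinal guanylate cyclase C receptor (0.976). Next were Haspin, a histone H3 kinase of mitosis (0.974), and Gltp, a glycolipid transfer protein (0.974). Most like Tubb4b were Fam98a (0.953), Srxn1, which encodes sulfiredoxin (0.95), Sfpq (0.948), Nolc1 (0.945) and Rars1, an arginyl-tRNA synthetase (0.945). Those most like Tuba4a were Pelo (0.917), Sqstm1, which encodes the autophagy receptor p62 (0.909), and Tubb4b (0.892). Tubb5 was most like Tax1bp3 (0.945), Pvr (0.943) and Psat1, an enzyme of serine synthesis (0.94). Tubb2a had Tuba4a as its nearest gene in that ranking (0.866), followed by Mkln1 (0.862) and Creb3 (0.853).

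Tubulin needs helpers to fold: prefoldin hands new chains to the CCT chaperonin, and the tubulin cofactors with Arl2 join α and β. Of 22 measured genes of this group, 13 were higher and 1 lower in combination livers at 24 h against vehicle (median change 0.42), and 13 were higher and 1 lower in galactosamine livers (median 0.48), where 20.7% and 30.2% of all genes were higher. None was called in nevirapine livers at 24 h (median 0.03). In galactosamine livers the prefoldin subunit gene Pfdn4 was 1.40 ± 0.14 higher, the chaperonin genes Cct7 and Cct5 were 1.05 ± 0.12 and 0.92 ± 0.12 higher, and the cofactor gene Tbcc was 1.04 ± 0.13 higher, while Pfdn1, named after its value was seen as the 1 lower gene, had -0.32. In combination livers Pfdn4 was 1.17 higher, Pdcl3 0.85, Cct6a 0.69 and Cct3 0.66. At 48 h, 14 of 22 were higher in galactosamine livers (median 0.59, with 24.9% of all genes higher), with Tbcc at 0.95, Tbcb at 0.93 and Arl2 at 0.85. Against all vehicle rats that count was 8. In nevirapine livers at 48 h 10 of 22 were higher (median 0.36, with 11.0% of all genes higher), with Pfdn4 at 0.93 and Arl2 at 0.78. That count was 6 to 8 with a rat left out and 5 against all vehicle rats. In combination livers at 48 h 9 of 22 were higher (median 0.30, with 10.2% of all genes higher), a count that was 0 with only these 2 groups fitted and 3 against all vehicle rats.

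Of the loop that shortens tubulin mRNA life, Cnot11 and Ttc5 were higher in galactosamine livers at 24 h, by 1.21 and 0.60, and Scaper lower, by -0.58, out of 4 measured. Over all genes 30.2% were higher and 28.5% lower in that comparison, so this count does not set the loop apart. In nevirapine livers Scaper was lower by -1.15, where 6.63% of all genes were lower. Among 6 other measured tubulin genes, Tubg1, the γ-tubulin of the centrosome, was higher by 0.97 ± 0.18 in combination livers (adjusted p = 2.22e-05) and by 0.71 ± 0.18 in galactosamine livers (adjusted p = 0.000706). Among 12 genes of microtubule nucleation, 4 were higher and 1 lower in galactosamine livers at 24 h, a share of higher genes near the 30.2% of all genes, with Mzt1, a small subunit of the γ-tubulin ring complex, at 1.55 and Tubgcp3 at 1.16.

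Microtubule motors moved both ways. In combination livers at 24 h 11 of 28 were higher and 2 lower (median change 0.21), and in galactosamine livers 15 were higher and 6 lower (median 0.42). Over all genes 20.7% were higher and 16% lower in combination livers, and 30.2% were higher and 28.5% lower in galactosamine livers. The kinesin light chain gene Klc4 had the lowest change of these in both, -1.70 in combination livers and -3.00 ± 0.16 in galactosamine livers. The kinesin-2 gene Kif3a was 1.07 and 1.54 higher in these groups, and the dynein light chain gene Dynlt1 was 1.06 and 1.97 higher. The galactosamine count of lower motor genes was 2 with only these 2 groups fitted. Of 26 genes for microtubule growth and stability, 9 were higher and 6 lower in galactosamine livers at 24 h, among them the plus-end gene Mapre1 at 1.56 and the minus-end genes Camsap1 and Camsap3 at 1.60 and 1.49. Of 13 genes for disassembly and severing, 4 were higher, with Kif2a at 1.69 and the katanin gene Katna1 at 1.38. Of 14 genes that modify tubulin, 2 were higher and 4 lower, with the tubulin tyrosine ligase Ttl at 1.36 and the deacetylases Sirt2 and Hdac6 at -1.13 and -1.10. The higher shares of the growth and disassembly groups and the lower share of the modification group were near those of all genes (30.2% higher and 28.5% lower). In those directions the counts set none of the 3 groups apart. The 2 of 14 modification genes that were higher are a smaller share than the 30.2% of all genes, a difference that was not tested.

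Of 21 measured genes of the actin and keratin cytoskeleton, 11 were higher and none lower in combination livers at 24 h (median change 0.63), where 20.7% of all genes were higher. In galactosamine livers 15 were higher, 2 lower and 4 not called (median 1.15), where 30.2% of all genes were higher, and 1, the tropomyosin gene Tpm4 at 0.89, was higher in nevirapine livers. Anxa2, which encodes an actin-binding annexin, was 1.53 higher in combination livers and 3.33 ± 0.36 higher in galactosamine livers. The hepatocyte keratin gene Krt8 was 1.47 higher in combination livers and 2.63 ± 0.23 higher in galactosamine livers. At 48 h 11 were higher in combination livers and 13 in galactosamine livers, beside 10.2% and 24.9% of all genes. The combination count was 0 with only combination and vehicle livers fitted, and as low as 4 with a rat left out. In galactosamine livers Krt18, the partner of Krt8, was at 2.72. Set directly against galactosamine livers, combination livers had 10 of 21 lower and 1 higher at 24 h (21.6% of all genes were lower), with Anxa2 at -1.81 and Krt8 at -1.17, and 5 lower at 48 h (17.1% of all genes), with Krt18 at -1.93.

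**Figure D4:**
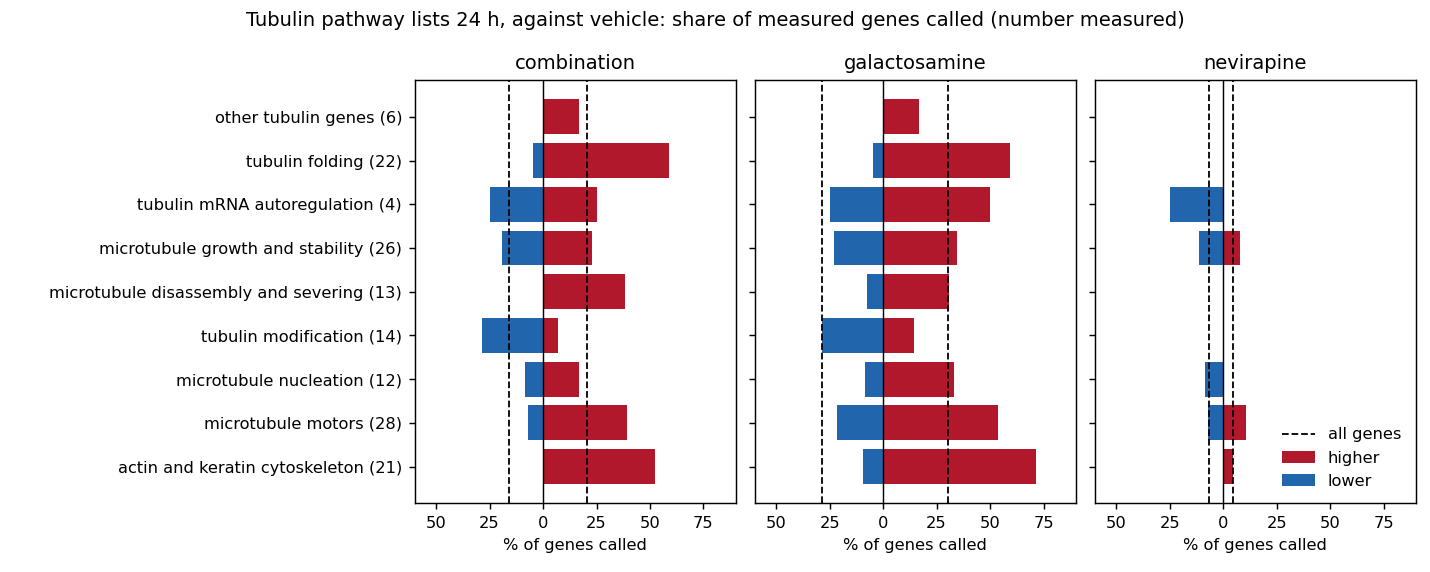
Share of the measured genes of each microtubule and cytoskeleton group that were called against vehicle at 24 h, in percent, for combination, galactosamine and nevirapine rats, with higher genes to the right of 0 and lower genes to the left. Dashed lines give the same shares over all genes (20.7%, 30.2% and 4.55% higher in these groups), and 13 of the 22 folding genes are higher in combination and in galactosamine rats against none in nevirapine rats.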

How the data were processed

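Liver RNA of 50 rats was measured on 1 Affymetrix 3′ expression array each. The authors deposited log2 values per probe set, and the submitters' processing notes name RMA (robust multi-array averaging) and limma, with no versions. No counts underlie the values. The number of rats in each group limits how precisely group means are known.

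Of 31099 probe sets, 20826 were paired with 1 symbol and 436 with several, per the platform annotation. For each of 14217 genes the probe set with the highest mean over the 50 arrays was used (4525 genes had more than 1). Groups were taken from the sample labels. Means of the 17 groups were fitted with limma 3.58.1 (lmFit and eBayes, R 4.3.3), and p-values were adjusted by Benjamini-Hochberg over all genes in each of 30 comparisons, with 0.05 as threshold. The script was tested on simulated data. The background level, 4.37, is the highest mean of 27 Bacillus subtilis control probe sets, of which the 12 whose names start with Bs reached 2.94. Figures and summaries used Python 3.11.15, Numpy 2.4.6, pandas 2.3.3 and matplotlib 3.10.9. Promoters came from RefSeq (GRCr8).

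Genes named outside the members follow fixed lists, the 4 with the largest called changes per list and comparison being preferred, and the 5 most similar genes for each member. Members and lists were chosen with earlier results of these data known. Alternatives were cyclic loess normalization, averaging every probe set of a gene, the dimmest 40% of genes left out, only the compared groups fitted, all 15 vehicle rats as one control, another vehicle group at 8 d, treated groups compared directly at 8 d, and leaving out single rats. A GAPDH covariate, the F test over vehicle groups and the pooled vehicle control for counts in the difference of galactosamine effects were added after seeing the data. Hybridization dates were not used here, so batches could not be examined.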

Additional observations from a re-analysis of the deposited data

Results flagged for a closer look

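The effect of galactosamine differed between rats with and without nevirapine in 7 instances, by a test of the difference itself (limma, adjusted over 14217 genes). At 24 h the difference, with minus without, was -2.18 for Tubb6, -2.17 for Tubb2a, -1.82 for Tubb5, -1.61 for Tubb4b and -2.22 for Tuba4a, and at 48 h it was -3.55 for Tubb6 and -2.14 for Tubb4b. All were negative, with adjusted p from 4.64e-10 to 0.00125, where 30.0% of all genes at 24 h and 34.0% at 48 h were called. With all 15 vehicle rats as one control the Tubb2a difference was -0.92 and was not called (adjusted p = 0.376), and the other 6 were still called. The nevirapine courses behind these effects differed in length and dose before 8 d. In Tubb2a and Tuba4a, nevirapine livers at 24 h averaged 10.91 and 10.07, against 10.79 and 10.19 in galactosamine livers.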

How the results depend on the processing

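No called change of a tubulin gene turned its sign under any alternative run. The 24 h counts held at 5 of 6 members in combination and galactosamine livers and 4 in nevirapine livers under every setting run for them and with each rat left out. The difference of galactosamine effects at 24 h held at 5 except with all 15 vehicle rats as one control, which gave 4, without Tubb2a (-0.92, adjusted p = 0.376). At 48 h that control gave 3 in place of 2. With all 15 vehicle rats as one control, members called were 2 in galactosamine livers at 3 h (1 with matched vehicle), 3 at 48 h (5) and 4 at 8 d (0), 0 in nevirapine livers at 48 h (2) and 1 at 15 d (0), and 2 in combination livers at 3 h (1) and 5 at 8 d (3). With only the groups compared fitted, the counts were 1 for nevirapine at 15 d (0), 2 for combination at 48 h (4) and 5 at 8 d (3) against vehicle. Against galactosamine they were 0 for the combination at 3 h (1), 1 at 48 h (2) and 1 at 8 d (0), which was also 1 when the treated groups were compared directly. The difference of effects at 8 d gave 1 (0). In time steps they were 1 for nevirapine 24 h against 3 h (3), 2 for nevirapine 15 d against 48 h (0), 3 for combination 48 h against 24 h (5) and 0 for combination 8 d against 48 h (2). That last count was 1 with the dimmest genes left out, with cyclic loess or with the GAPDH covariate, which also gave 3 for galactosamine at 48 h. These smaller fits use fewer rats for the spread, and the cause of the pooled-vehicle changes was not tested. Over all genes, fitting only the groups compared gave 374 in place of 2265 called for combination at 48 h, 757 in place of 2518 for combination against galactosamine at 3 h and 4299 in place of 1978 for nevirapine at 15 d, and the pooled control gave 718 in place of 5 for galactosamine at 8 d.

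With 1 rat left out at a time, members called ranged from 3 to 5 for galactosamine at 48 h, 0 to 2 for nevirapine at 3 h, 1 to 2 at 48 h, 0 to 2 for the combination at 3 h, 2 to 4 at 48 h and 1 to 3 at 8 d. Against galactosamine the combination ranged from 0 to 1 at 3 h, 1 to 2 at 24 h, 2 to 3 at 48 h and 0 to 1 at 8 d, and against nevirapine at 15 d from 1 to 3. The difference of effects at 48 h ranged from 2 to 5. Time steps ranged from 1 to 3 for galactosamine 48 h against 24 h, 2 to 4 for 8 d against 48 h, 0 to 3 for nevirapine 24 h against 3 h, 0 to 1 for 48 h against 24 h, 4 to 5 for combination 48 h against 24 h and 0 to 2 for 8 d against 48 h. Over all genes, 1825 to 2273 were called for nevirapine 24 h against 3 h and 505 to 1465 for 48 h against 24 h. For the combination these counts were 2960 to 4349 for 48 h against 24 h and 3589 to 4623 for 8 d against 48 h. No all-gene range is given for galactosamine at 48 h, where some of these runs leave 1 rat in that group. No paired analysis was possible because the rat numbers are not shared between groups. Groups of 2 or 3 rats, 1 probe set per gene and signals near background for Tubb2b limit what can be read.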

Other observations

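The probe set that the annotation pairs with Tuba1b, Tuba1c and Tuba1a together cannot be assigned to 1 of them, and its values are given without a test. At 3 h, 24 h, 48 h and 8 d it averaged 9.75, 11.65, 10.74 and 10.53 in combination livers. In galactosamine livers at the same times it averaged 8.85, 11.95, 10.80 and 10.54. In nevirapine livers at 3 h, 24 h, 48 h and 15 d it averaged 10.00, 10.94, 10.18 and 9.84. In vehicle livers at 3 h, 24 h, 48 h, 8 d and 15 d it averaged 9.78, 9.61, 9.36, 10.01 and 9.94. The SD within a group was 0.02 to 0.45. Its lowest group was galactosamine at 3 h and its highest galactosamine at 24 h, the order that Tubb4b also had.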
